A study of Mus musculus with 10 samples.

Results

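Cyclic nucleotide phosphodiesterases of brown adipose tissue, a fat depot that produces heat, were examined through 10 genes of the family: Pde1a, Pde3a, Pde3b, Pde4a, Pde4b, Pde4d, Pde7a, Pde7b, Pde8a and Pde10a. They were selected by symbol from the 32889 genes of the deposited table, with earlier results on the same read counts in view. It is not recorded which of the 3 group contrasts weighed in that choice. Values of these genes are therefore given as descriptions in all 3, with fold changes and standard errors but no p-value of their own. Where a member is said to pass a p threshold, that too is a description and no independent test of the member. All 10 were found in the table, and all 10 passed the filter on low counts. The study sequenced total RNA from wild-type C57BL/6J mice in 3 groups. The control group was fed a regular chow diet (4 libraries). The other groups were fed a high-fat diet, and their mice were labelled obesity-prone (3 libraries) or obesity-resistant (3 libraries). Age, sex, time on the diet and the criterion that separated prone from resistant mice are not given in the sources used here. The labels do not say whether libraries of 1 group are from different animals. P-values therefore measure the spread between these libraries alone, which may be technical.

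Phosphodiesterases hydrolyse the second messengers cAMP and cGMP and so end the signal that receptors start. In brown fat, noradrenaline acts through beta-adrenergic receptors on adenylyl cyclase. The cAMP formed activates protein kinase A, which drives lipolysis and, with transcription factors of the CREB family, genes of heat production. Family members differ in substrate and control. PDE1 enzymes are activated by calcium and calmodulin and cleave both messengers. PDE3 enzymes cleave cAMP and are inhibited by cGMP, and PDE3B is the enzyme through which insulin restrains lipolysis in fat cells. PDE4, PDE7 and PDE8 enzymes are specific for cAMP, and PDE10A cleaves both messengers.

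Libraries held between 35583997 and 37327770 counts. Levels within a gene are given as CPM, counts scaled to a common library size after TMM normalisation, and levels between genes as FPKM, which corrects for transcript length. A gene is said to be called when its adjusted p, from edgeR's quasi-likelihood test over 19676 genes, lay below 0.05. The tissue label was checked against 6 brown adipocyte markers (Ucp1, Cidea, Elovl3, Ppargc1a, Cox7a1 and Cox8b). Their sum lay between 8050 and 11704 CPM in control libraries, between 3619 and 10258 in obesity-prone ones and between 10331 and 11555 in obesity-resistant ones. Obesity-prone replicate 3 stood apart with the lowest of these sums. It also had the highest sums of 5 white adipocyte-selective genes (886 CPM, against 80.5 to 258 elsewhere), 5 erythrocyte genes (22142, against 707 to 6148) and 4 fibroblast genes (1111, against 300 to 544). Skeletal muscle markers (6 genes) summed to between 24.1 and 595 CPM and were highest in control replicates 2 and 3 and obesity-resistant replicates 2 and 3. In bulk tissue, fewer cells of a type and less RNA per cell cannot be told apart.

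Per transcript length, Pde7b was the highest member in control libraries, with 147 ± 32.7 FPKM (SD, n = 4). Pde3b followed with 120 ± 12.2 and Pde4d with 84.7 ± 8.60. The level then dropped to Pde3a at 41.2 ± 7.36, Pde8a at 32.7 ± 2.43 and Pde4a at 22.4 ± 1.97. Pde1a stood at 9.86 ± 1.88, Pde4b at 4.41 ± 1.92, Pde10a at 3.29 ± 0.966 and Pde7a at 2.46 ± 0.212 FPKM. Neighbours in this order overlapped between control libraries for Pde7b and Pde3b, for Pde3a and Pde8a, and for the run from Pde1a through Pde4b and Pde10a to Pde7a. In obesity-prone libraries the first place passed to Pde3b, at 99.8 ± 5.58 FPKM (n = 3), and Pde7b lay at 56.0 ± 16.7 beside Pde4d at 60.1 ± 16.3. In obesity-resistant libraries Pde7b was again highest at 160 ± 44.4 FPKM, before Pde3b at 112 ± 10.8.

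**Figure D1:**
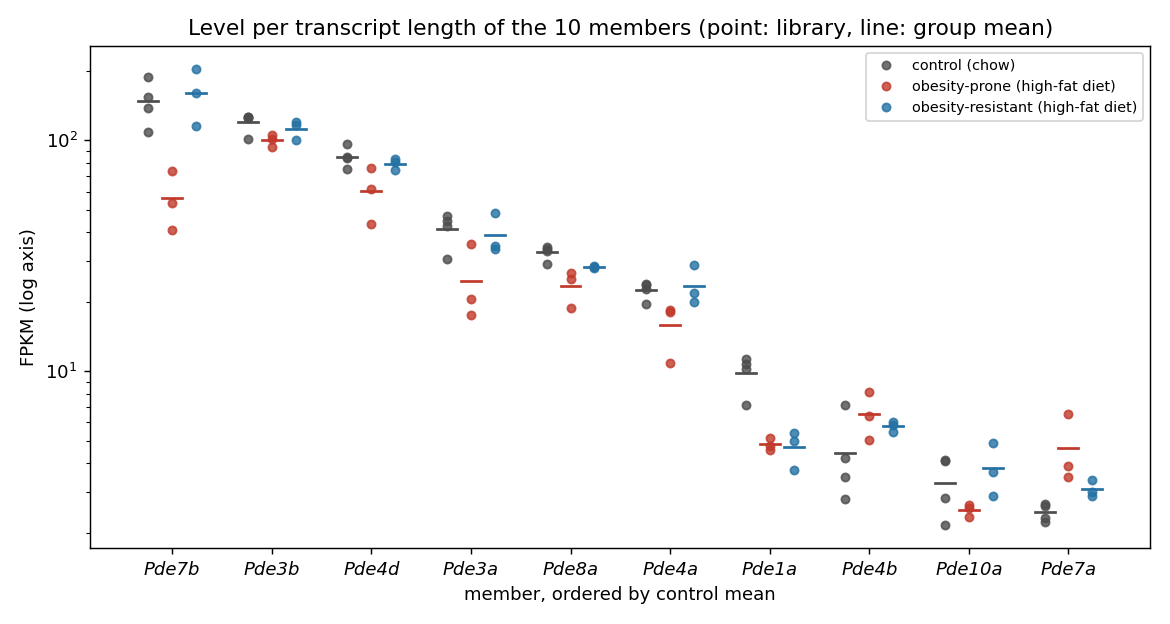
FPKM of the 10 members on a log axis, ordered by their control mean, with 1 point per library and a line at each group mean. Levels run from 147 FPKM for Pde7b to 2.46 for Pde7a in control, and Pde7b is the only one of the 3 highest members whose obesity-prone points all lie below its other points.

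Summed over the 21 phosphodiesterase genes of the family found in the table, the level was 531 ± 47.3 FPKM in control, 525 ± 46.0 in obesity-resistant and 366 ± 39.4 in obesity-prone libraries. The 3 obesity-prone sums, 341, 411 and 345 FPKM, lay below all 7 others, which ran from 472 to 585. Pde7b made up 27.5 ± 4.0% of the sum in control, 30.1 ± 6.0% in obesity-resistant and 15.1 ± 3.01% in obesity-prone libraries. The share of Pde3b was 22.6 ± 3.03% in control and 27.4 ± 1.82% in obesity-prone libraries, although its own level was not higher there.

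Obesity-prone libraries were first set against control, to ask what goes with the diet in mice that become obese on it. Of the 10 members, 4 were called, at a background of 7.00% of all genes tested. Pde1a, Pde7b and Pde8a were called lower (background 3.29%) and Pde7a higher (background 3.71%). CPM did not overlap between the groups for 5 members, these 4 and Pde4a, against 20.3% of all genes. The median log2 fold change was -0.53 over the members and 0.005 over all genes. Since the members were chosen with these results known, nothing is read from these counts.

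Obesity-resistant libraries were next set against control, to ask what goes with that diet when obesity does not follow. Pde1a was called lower, 1 of 10 members, where 0.142% of all genes were called. It was also the 1 member whose CPM did not overlap, against 20.2% of all genes. The other 9 members had log2 fold changes between -0.25 and 0.24, and the median over the 10 was 0.00, beside -0.006 over all genes. With the replicate number as a block, which raised the genes called from 28 to 382, the same 1 member was called. The labels do not say whether these numbers pair libraries. Both comparisons share the control libraries, so their fold changes are given side by side and no agreement between them is counted.

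Obesity-prone and obesity-resistant libraries were compared directly to ask which differences go with obesity on one diet. None of the 10 members was called by edgeR, and none of all genes (background 0.00%). At an unadjusted p under 0.05 the counts were 5 of 10 members and 3030 of 19676 genes, and DESeq2 called 1 member (Pde7b) among 565 genes. CPM did not overlap for 6 members, Pde7b, Pde3a, Pde4a, Pde8a and Pde10a lower and Pde7a higher in obesity-prone libraries, against 19.7% of all genes. The median log2 fold change was -0.34 over the members and -0.007 over all genes.

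**Figure D2:**
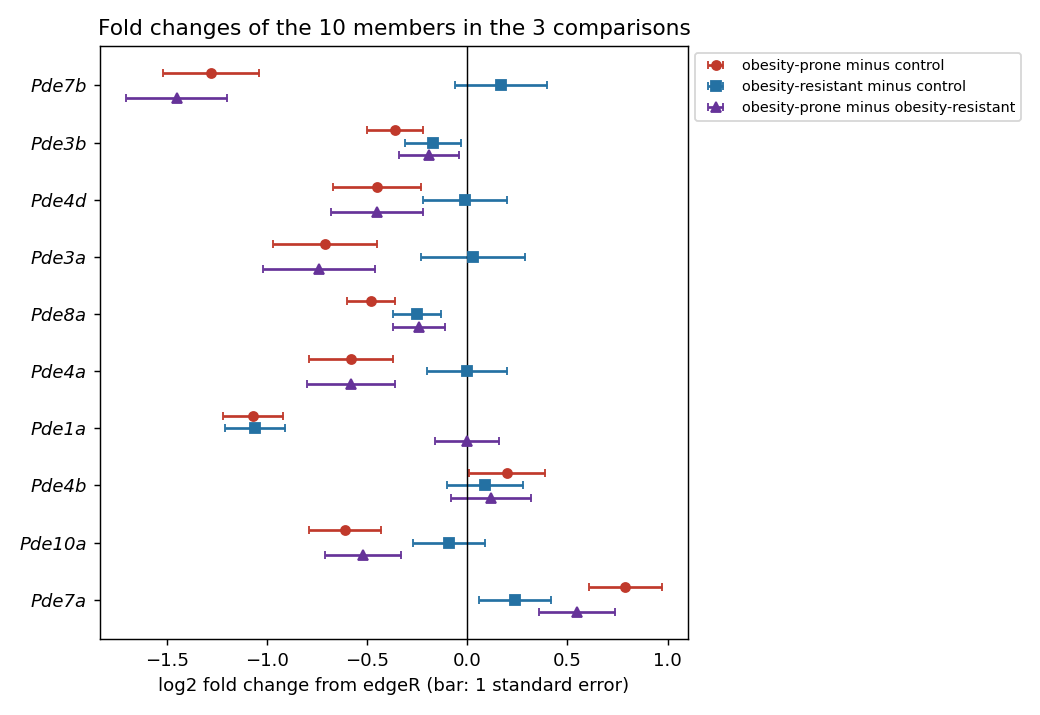
Log2 fold changes of the 10 members from edgeR in the 3 comparisons, with bars of 1 standard error. Pde1a lies near -1.07 against control in both high-fat groups and at 0.00 between them, whereas Pde7b lies at -1.28 and -1.45 in the contrasts with obesity-prone libraries and at 0.17 in obesity-resistant against control.

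Pde1a, a calcium- and calmodulin-activated enzyme (identifier 18573, GRCm38.p6 chromosome 2, 79834453 to 80196522, protein-coding), was lower in both high-fat groups. Control replicates 1 to 4 had 49.2, 46.2, 51.0 and 32.6 CPM. Obesity-prone replicates 1 to 3 had 20.8, 20.4 and 22.9 CPM, and obesity-resistant replicates 1 to 3 had 18.7, 22.6 and 22.9. All 6 high-fat libraries lay below all 4 control libraries, and the high-fat groups overlapped each other. Control libraries averaged 44.7 ± 8.36 CPM (SD, n = 4). Obesity-prone libraries averaged 21.4 ± 1.33 CPM and obesity-resistant libraries 21.4 ± 2.35 (SD, n = 3 each), from 672 to 1789 counts per library. Log2 fold changes against control were -1.07 ± 0.15 (SE) in obesity-prone and -1.06 ± 0.15 in obesity-resistant libraries, and 0.00 ± 0.16 between them. In obesity-prone against control the call held whichever of the 10 libraries was left out, with log2 fold changes from -1.19 to -1.0. In obesity-resistant against control the log2 fold changes ran from -1.19 to -0.98, and the call was lost without control replicate 1, 2 or 3, obesity-prone replicate 1 or any obesity-resistant replicate, and in limma's fits on log2 FPKM.

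Vascular smooth muscle, where Pde1a is also known, was checked with 6 markers (Acta2, Myh11, Tagln, Cnn1, Myl9 and Lmod1). Their sum was 123 to 157 CPM in control libraries, 112 to 235 in obesity-prone ones and 88.5 to 119 in obesity-resistant ones. No marker of the 6 was called in any comparison. Control replicate 4, the lowest control library for Pde1a, had the highest smooth muscle sum of the controls at 157 CPM. The obesity-resistant libraries, also low for Pde1a, had sums below every control library. The part of smooth muscle in the level of Pde1a was not tested.

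RefSeq gives Pde1a 4 promoter windows, each from 250 bases before to 50 bases after a start site. They were searched for the cAMP response element, TGACGTCA, and for its core TGACG, on both strands. The full element contains the core on each strand. It was found in 1.79% of 32851 windows of all genes and in none of the 16 windows of the 7 members with an entry. The core was found in 20.8% of all windows and in 4 of the 16, 1 each of Pde1a, Pde4a, Pde4b and Pde8a. Windows of the 3 members called lower are shown: the window of Pde1a that lies farthest upstream of its 4 (chr2:80129363-80129662, minus strand), its window with the core (chr2:80038853-80039152, minus strand), and the single windows of Pde7b (chr10:20548279-20548578, minus strand) and Pde8a (chr7:81213015-81213314, plus strand). All are 5′ to 3′ on the strand of the gene, on GRCm38.p6, with the core in capitals (CGTCA where it lies on the other strand).
Pde1a farthest upstream: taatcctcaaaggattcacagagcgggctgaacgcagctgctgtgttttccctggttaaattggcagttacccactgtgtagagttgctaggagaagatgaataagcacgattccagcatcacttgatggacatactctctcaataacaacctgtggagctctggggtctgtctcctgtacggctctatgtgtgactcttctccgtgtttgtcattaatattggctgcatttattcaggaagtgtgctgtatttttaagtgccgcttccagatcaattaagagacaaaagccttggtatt
Pde1a with core: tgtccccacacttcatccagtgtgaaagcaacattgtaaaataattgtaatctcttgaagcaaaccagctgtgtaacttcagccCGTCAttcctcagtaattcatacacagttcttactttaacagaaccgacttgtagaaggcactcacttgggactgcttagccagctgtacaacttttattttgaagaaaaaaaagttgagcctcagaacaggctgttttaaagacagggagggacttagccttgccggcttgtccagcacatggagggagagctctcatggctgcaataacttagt
Pde7b: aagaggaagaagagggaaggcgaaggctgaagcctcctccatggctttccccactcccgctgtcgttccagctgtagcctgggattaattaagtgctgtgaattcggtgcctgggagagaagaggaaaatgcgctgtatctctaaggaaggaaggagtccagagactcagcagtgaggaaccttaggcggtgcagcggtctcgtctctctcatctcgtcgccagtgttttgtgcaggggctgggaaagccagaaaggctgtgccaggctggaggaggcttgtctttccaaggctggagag
Pde8a: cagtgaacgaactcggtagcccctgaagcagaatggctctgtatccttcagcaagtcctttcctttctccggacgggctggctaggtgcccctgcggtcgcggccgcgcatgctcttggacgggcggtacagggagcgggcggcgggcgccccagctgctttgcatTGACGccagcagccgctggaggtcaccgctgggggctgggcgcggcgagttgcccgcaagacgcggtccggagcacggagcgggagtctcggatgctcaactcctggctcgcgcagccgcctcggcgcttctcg
A match describes the letters and not binding, and a window without one says nothing of the factor. The Pde1a and Pde7b windows lie within the RefSeq spans of these minus-strand genes, which end at 80196522 and 20725078. No window at those ends was searched. Read along the strand of the gene, the first capital letter lies at position -166 from the start site in the Pde1a window and at -84 in that of Pde8a. The windows differed in base composition, with 44.3% and 43.3% G and C for Pde1a, 55.7% for Pde7b and 68.7% for Pde8a.

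Pde7b, a cAMP-specific enzyme (identifier 29863, chromosome 10, 20397052 to 20725078), was lower in obesity-prone libraries than in both other groups. Control replicates 1 to 4 had 200, 331, 244 and 270 CPM. Obesity-prone replicates 1 to 3 had 83.8, 145 and 93.4 CPM, and obesity-resistant replicates 1 to 3 had 358, 290 and 233. Every obesity-prone library lay below every other library, while control and obesity-resistant libraries overlapped. Group means were 261 ± 54.7 CPM (control), 107 ± 33.0 (obesity-prone) and 294 ± 62.5 (obesity-resistant). Against control the log2 fold change was -1.28 ± 0.24 (SE) in obesity-prone and 0.17 ± 0.23 in obesity-resistant libraries. Directly between the high-fat groups it was -1.45 ± 0.25, which edgeR did not call and DESeq2 did. The call against control was lost without control replicate 2 or 3 or obesity-prone replicate 1 or 3, with log2 fold changes from -1.56 to -1.13 over the 10 libraries left out. Without obesity-prone replicate 2 the contrast between the high-fat groups was called at -1.73.

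The adipocyte marker sum (Adipoq, Plin1, Fabp4, Pparg and Lpl) was also lower in obesity-prone libraries. It was 6862, 8469 and 6644 CPM in obesity-prone replicates 1 to 3, against 10489 to 11184 in control and 8844 to 10934 in obesity-resistant libraries. Of the 5 markers, 1 was called lower. Lpl was a large part of the sum, with means of 5822 CPM in control, 3521 in obesity-prone and 6075 in obesity-resistant libraries. Lpl was also the gene with the pattern most like Pde7b (r = 0.982), and the sum was not read apart from it. Within the obesity-prone group, replicate 2 was highest for both Pde7b and this sum. Replicates 1 and 3 ranked in opposite orders, with 83.8 and 93.4 CPM for Pde7b and sums of 6862 and 6644. Control replicate 4 had the lowest control sum, 10489, with 270 CPM of Pde7b. The part of adipocyte content in the level of Pde7b was not tested.

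Pde7a, the other gene of the PDE7 pair (identifier 18583, chromosome 3, 19223108 to 19311322), was higher in obesity-prone libraries. Control replicates 1 to 4 had 16.2, 12.9, 12.4 and 13.4 CPM, obesity-prone replicates 1 to 3 had 18.4, 21.3 and 31.6, and obesity-resistant replicates 1 to 3 had 16.1, 14.6 and 17.9. The obesity-prone libraries lay above all others, most of all replicate 3. Its log2 fold change was 0.79 ± 0.18 (SE) against control and 0.55 ± 0.19 against obesity-resistant libraries. Without obesity-prone replicate 3 the log2 fold change against control was 0.53 and not called. The call was also lost without control replicate 1, 2 or 3 or obesity-resistant replicate 1 or 2. PDE7A is known from lymphocytes and other immune cells. Macrophage markers (6 genes) summed to 259, 138 and 374 CPM in obesity-prone replicates 1 to 3, 99.0 to 167 in control and 95.6 to 112 in obesity-resistant libraries, with 2 of 6 called higher in obesity-prone libraries, and their part in Pde7a was not tested. The PDE7 genes were thus called in opposite directions in obesity-prone libraries, Pde7b as the highest member per length in control and Pde7a as the lowest.

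Pde8a, a cAMP-specific enzyme of high affinity (identifier 18584, chromosome 7, 81213265 to 81334535), was lower in obesity-prone libraries by a smaller step. Control replicates 1 to 4 had 119, 116, 119 and 96.0 CPM. Obesity-prone replicates had 89.7, 86.0 and 65.4 CPM, and obesity-resistant replicates 97.8, 91.2 and 95.4. The order of the group means was control at 112 ± 11, obesity-resistant at 94.8 ± 3.31 and obesity-prone at 80.4 ± 13.1 CPM. Obesity-resistant libraries overlapped with control through control replicate 4. Its fold change (log2) against control was -0.48 ± 0.12 (SE) in obesity-prone and -0.25 ± 0.12 in obesity-resistant libraries. The obesity-prone call held in 2 of the 10 fits that each left out 1 library, those without control replicate 4 and without obesity-prone replicate 2. Over the 10 fits the log2 fold changes ran from -0.57 to -0.36.

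**Figure D3:**
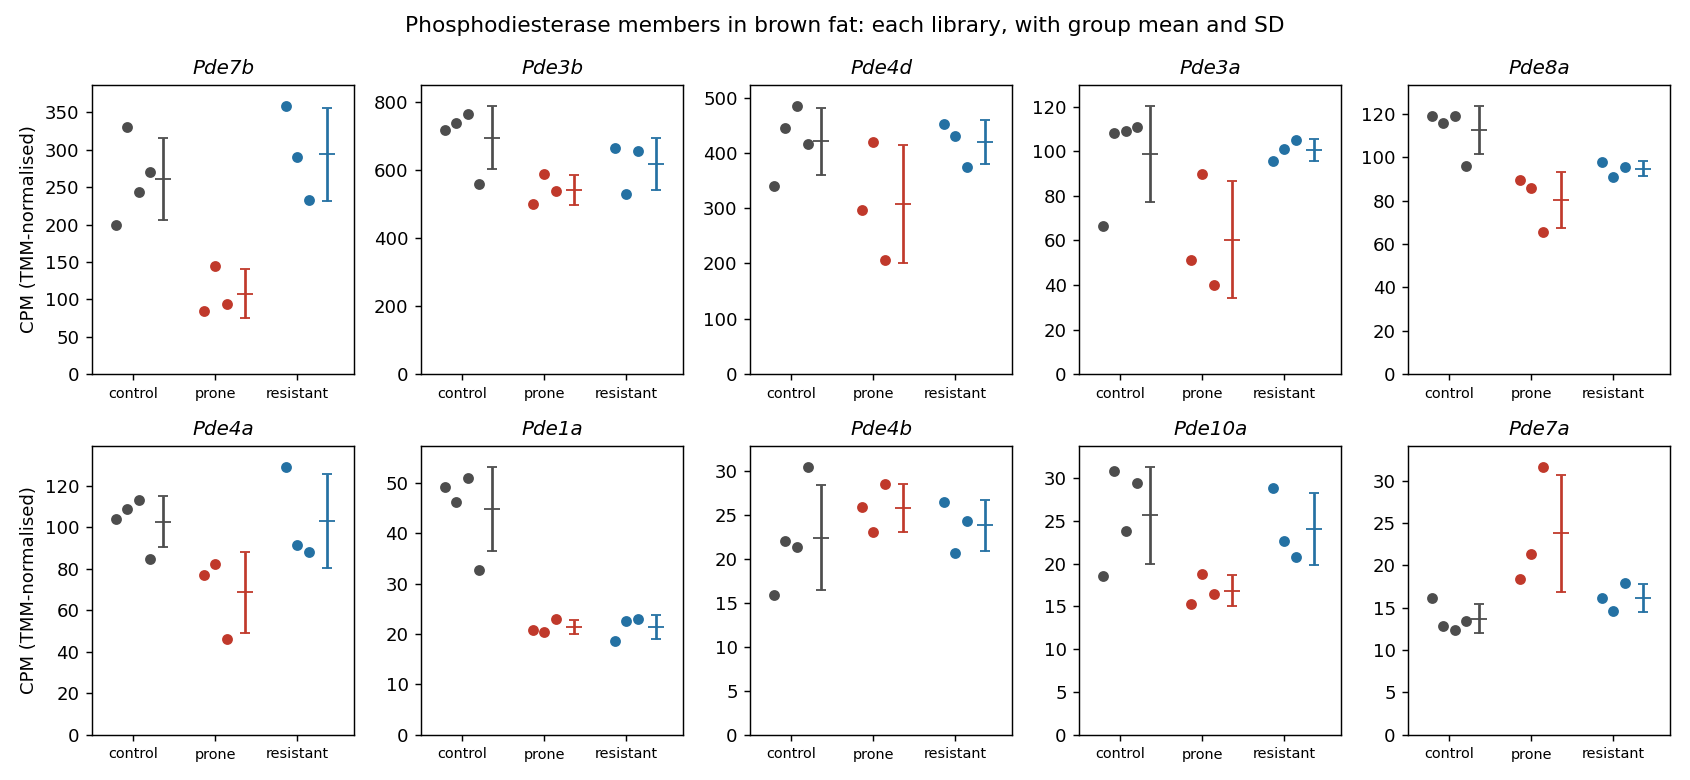
CPM of each member in each library, with the group mean and SD beside the points and each axis starting at 0. All 6 high-fat libraries lie below the 4 control libraries for Pde1a, while for Pde7b the 3 obesity-prone libraries alone lie below the rest.

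Among the PDE3 genes, Pde3b (identifier 18576, chromosome 7, 114415222 to 114537938) had the highest counts of all members, 19365 to 26767 per library. Mean levels were 694 ± 92.7 CPM (control), 542 ± 44.1 (obesity-prone) and 616 ± 76.3 (obesity-resistant). Control replicate 4, at 558 CPM, lay within the range of the obesity-prone libraries (499 to 587). The log2 fold change was -0.36 ± 0.14 in obesity-prone and -0.17 ± 0.14 in obesity-resistant libraries, neither called. Without control replicate 4 the obesity-prone log2 fold change was -0.45 and called. Pde3a, the family's cardiac and vascular PDE3 (identifier 54611, chromosome 6, 141249269 to 141506862), had 51.2, 89.9 and 40.0 CPM in obesity-prone replicates 1 to 3. Control libraries had 66.4, 108, 109 and 111 CPM and obesity-resistant ones 95.4, 101 and 105. Obesity-prone libraries lay below the obesity-resistant ones but overlapped with control. Its log2 fold change was -0.71 ± 0.26 against control and -0.74 ± 0.28 against obesity-resistant libraries, neither called. Without obesity-prone replicate 2 both were called, at -1.12 and -1.14.

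The PDE4 genes form the main cAMP-specific family in many tissues. Pde4d (identifier 238871, chromosome 13, 108654177 to 109955969) had 297, 419 and 207 CPM in obesity-prone libraries, 340 to 484 in control and 375 to 453 in obesity-resistant ones. Pde4a (identifier 18577, chromosome 9, 21165700 to 21213248) had 77.1, 82.4 and 46.4 CPM in obesity-prone libraries, 84.9 to 113 in control and 88.3 to 129 in obesity-resistant ones. For both, obesity-prone replicate 3 was the lowest of the 10 libraries. The log2 fold change against control was -0.45 ± 0.22 for Pde4d and -0.58 ± 0.21 for Pde4a, not called, and in obesity-resistant libraries -0.01 ± 0.21 and 0.00 ± 0.20. Without obesity-prone replicate 2 that of Pde4d was -0.74 and called. Pde4b, an inflammatory-cell and adipocyte PDE4 (identifier 18578, chromosome 4, 102087332 to 102607275), overlapped between all groups in CPM, with means of 22.5 ± 6.00 in control, 25.9 ± 2.79 in obesity-prone and 23.9 ± 2.94 in obesity-resistant libraries. Its log2 fold changes were 0.20 ± 0.19 and 0.09 ± 0.19.

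Pde10a (identifier 23984, chromosome 17, 8525187 to 8986648), best known from the striatum of the brain, had 15.3, 18.8 and 16.4 CPM in obesity-prone libraries. Control libraries ranged from 18.5 to 30.8 CPM and obesity-resistant ones from 20.8 to 28.8. Obesity-prone libraries lay below the obesity-resistant ones and overlapped with control through control replicate 1 (18.5 CPM). The log2 fold change was -0.61 ± 0.18 against control and -0.52 ± 0.19 against obesity-resistant libraries, neither called by edgeR. DESeq2 called the first.

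Across the 10 libraries the members fell into recurring patterns, given as Pearson correlations of log2 CPM without a test. Libraries share depth, group and tissue make-up, and part of each correlation comes from the group differences above. Pde3a followed Pde4d (r = 0.94), Pde7b followed Pde10a (0.90) and Pde3a (0.86), and Pde4a followed Pde8a (0.87) and Pde4d (0.86). Pde7a ran opposite to Pde8a (-0.86), Pde4d (-0.84) and Pde4a (-0.82). Pde1a stood apart from the Pde7b pattern (r = 0.32 with Pde7b, 0.26 with Pde3a) and was nearest to Pde8a (0.74) and Pde3b (0.70).

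**Figure D4:**
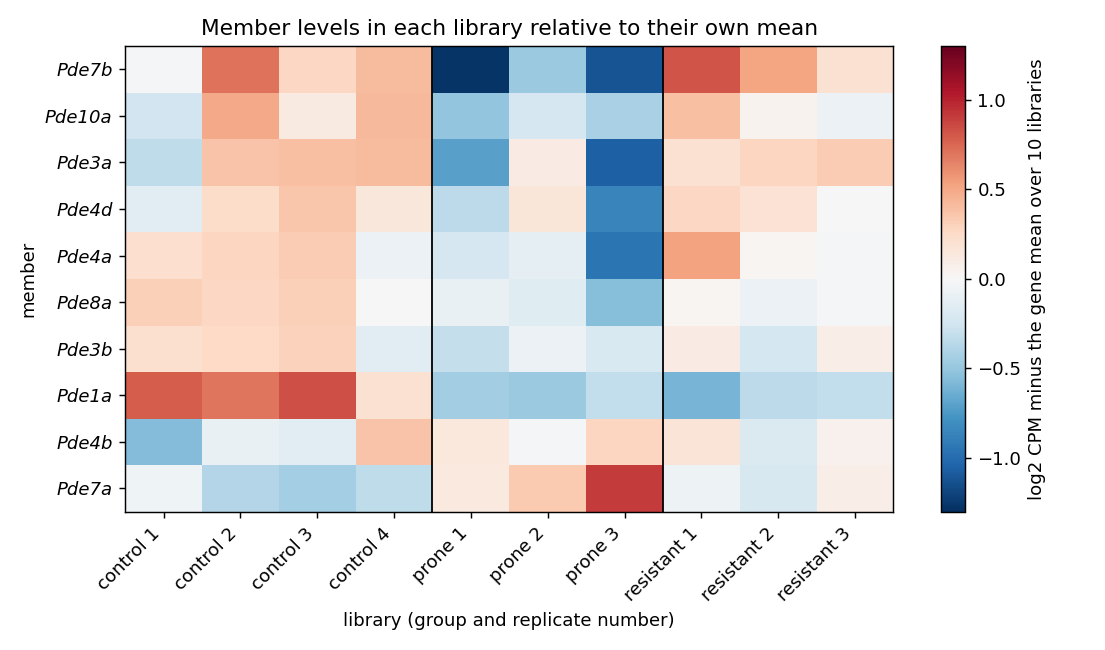
Log2 CPM of each member minus its mean over the 10 libraries, with libraries in columns and lines between the groups (control, obesity-prone, obesity-resistant). Obesity-prone replicates 1 and 3 are low for Pde7b and Pde3a while Pde7a is high in replicate 3, and Pde1a is high in control libraries alone.

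The deposited counts and FPKM together give the mean effective transcript length that the authors' quantification used, a measure of which transcripts of a gene carried the reads. It is given without a test. For Pde4b it was 5.56, 5.01, 5.78 and 4.36 kb in control replicates 1 to 4, 4.22, 4.54 and 3.68 kb in obesity-prone and 4.33, 3.97 and 4.20 kb in obesity-resistant replicates. The high-fat libraries lay below control replicates 1 to 3, and control replicate 4 lay among them. On the FPKM scale the log2 fold change of Pde4b in obesity-prone against control libraries was 0.56 with 0.5 FPKM added, in place of 0.20 on counts. For Pde10a the length was 7.71 ± 0.555 kb in control, 6.84 ± 0.211 in obesity-prone and 6.51 ± 0.741 in obesity-resistant libraries. Its obesity-prone log2 fold change on the FPKM scale was -0.29 in place of -0.61. For Pde7b it was 1.73 ± 0.0703 kb in control, 1.97 ± 0.155 in obesity-prone and 1.89 ± 0.156 in obesity-resistant libraries. Control and obesity-prone libraries did not overlap, and obesity-resistant ones overlapped with both. Pde3b and Pde4a stayed within 5.5 to 5.67 and 4.37 to 4.47 kb in all libraries.

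**Figure D5:**
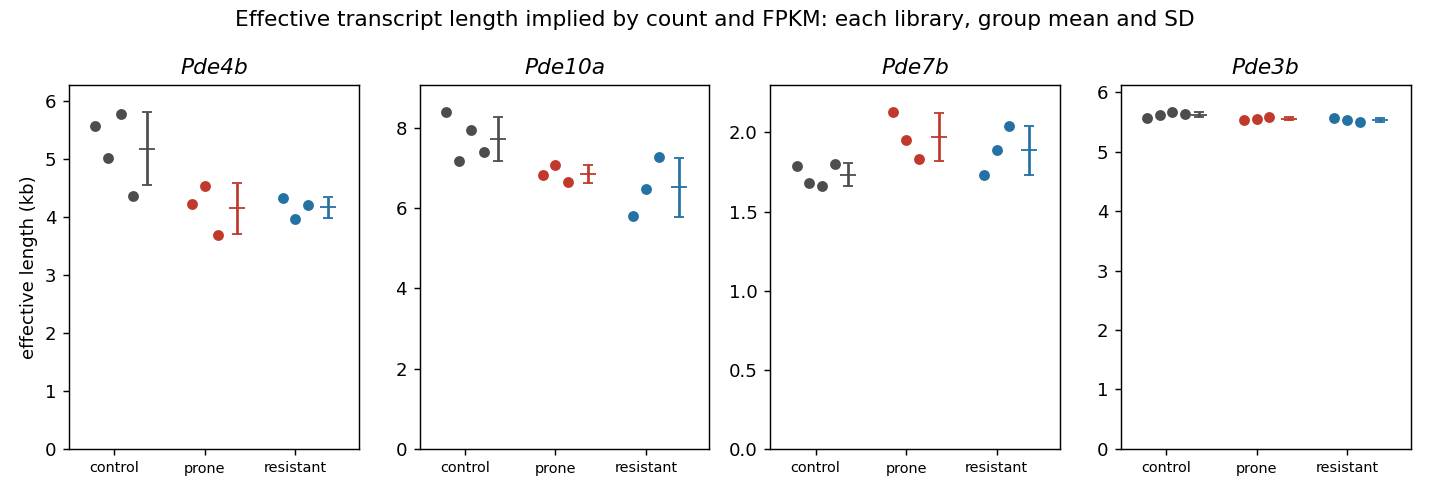
Effective transcript length in kilobases implied by the deposited count and FPKM, for Pde4b, Pde10a, Pde7b and Pde3b in each library, with group mean and SD and axes from 0. Pde4b was shorter in 5 of the 6 high-fat libraries than in every control library, while Pde3b stayed between 5.5 and 5.67 kb.

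Of the other phosphodiesterase genes, 11 of the 13 listed were in the table and 10 were tested. None was called in any of the 3 comparisons by edgeR (adjusted p from 0.208 to 0.99) or by DESeq2. At an unadjusted p under 0.05 the counts were 0, 1 (Pde4c, obesity-resistant against control) and 1 (Pde1b, between the high-fat groups). Pde1c, the PDE1 gene with the highest level per length, averaged 32.9 FPKM in control, 30.5 in obesity-prone and 31.5 in obesity-resistant libraries, with log2 fold changes of 0.07 ± 0.13 and 0.20 ± 0.13 against control. Pde1b averaged 5.79 CPM in control, 7.53 in obesity-prone and 5.30 in obesity-resistant libraries. Pde2a, a cGMP-stimulated enzyme, averaged 82.8, 99.6 and 90.4 CPM in the 3 groups, in the same order. The remaining genes tested, Pde4c, Pde5a, Pde6b, Pde6g, Pde8b, Pde9a and Pde11a, averaged at most 9.06 CPM in every group.

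The rest of the cAMP pathway was read from 8 lists in the same edgeR fit, as counts in obesity-prone against control libraries. Of the 86 genes tested in these lists 12 were called, beside 7.00% of all genes. The 8 adrenergic receptor genes tested had a median log2 fold change of -0.32, and the gene reported here ran against it. Adrb3, the main beta receptor of mouse fat, rose from 201 ± 22.3 to 421 ± 52.2 CPM (adjusted p = 0.011, a log2 fold change of 1.07 ± 0.15) and was called whichever library was left out (adjusted p from 0.0076 to 0.048). Obesity-resistant libraries stood between, at 344 ± 65.8 CPM for Adrb3 (adjusted p = 0.066 by edgeR). Of 14 adenylyl cyclase and G protein genes, Adcy7 rose from 11.1 ± 1.79 to 18.2 ± 4.82 CPM (adjusted p = 0.045) and Adcy9 fell from 98.6 ± 26.7 to 55.2 ± 12.4 (adjusted p = 0.0495). For both genes, CPM of control and obesity-prone libraries overlapped.

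Downstream of cAMP, 1 of 10 protein kinase A and Epac genes rose and 1 fell by edgeR. Prkaca, the main catalytic subunit, fell from 403 ± 43.5 to 253 ± 58.8 CPM (adjusted p = 0.044), and Pkig, a protein kinase inhibitor, rose from 10.6 ± 1.81 to 15.2 ± 1.76 (adjusted p = 0.049). Of 10 A-kinase anchoring proteins, which tether the kinase and phosphodiesterases to one place, Akap12 rose from 43.2 ± 10.1 to 78.1 ± 13.3 CPM (adjusted p = 0.026). Among 14 genes of CREB and its targets, Nr4a2, a nuclear receptor induced by cAMP, fell from 42.4 ± 18.2 to 13.8 ± 5.78 CPM (adjusted p = 0.038). None of 6 lipolysis effectors was called by edgeR, and 2 of the 6 had log2 fold changes above 0.

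On the cGMP side, Npr3, the clearance receptor for natriuretic peptides, rose from 156 ± 89.8 to 565 ± 295 CPM (adjusted p = 0.043 by edgeR) and Npr2, the receptor of C-type natriuretic peptide, from 34.5 ± 2.27 to 49.1 ± 9.90 (adjusted p = 0.044), 2 of 11 genes tested. For Npr3 the groups overlapped, with 282 CPM in control replicate 4 and 237 in obesity-prone replicate 2. Of 13 phosphodiesterase partners 2 fell: Calm2, a calmodulin gene, from 66.5 ± 4.05 to 54.4 ± 2.12 CPM and Pde4dip, which binds PDE4D, from 97.1 ± 21.5 to 56.2 ± 1.97 (adjusted p = 0.047 for both by edgeR). The median log2 fold changes of the 8 pathway lists ran from -0.32 to 0.19, beside 0.005 over all genes. Apart from Adrb3, each of the 11 genes named from these lists lost its call without at least 5 of the 10 libraries in turn, obesity-prone replicates 1 and 3 and control replicates 2 and 3 among them for all 10. In obesity-resistant against control libraries edgeR called none of the 86 genes of these lists. An unadjusted p under 0.05 was found for 12, and DESeq2 called 5. Over all 19676 genes these counts were 28, 3540 and 1138. Between the high-fat groups the counts were 0, 16 and 1, and over all genes 0, 3030 and 565.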

How the data were processed

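Total RNA of brown adipose tissue was sequenced in 10 libraries. Per the labels' protocols, the authors used Bowtie2 2.2.5 for alignment to a gene set of the sequencing company and RSEM 1.2.12 for quantification. HISAT2 2.0.4 and GRCm38.p6 stand in the submitters' processing notes. Strand setting and annotation release are not given in the sources used here, so reads of lncRNAs and pseudogenes that overlap 7 of the 10 members cannot be told apart from theirs. The deposited table holds expected counts (30.4% not whole) and the authors' FPKM, whose scale followed the count totals to within 0.128%. The 6 group mean columns were not used. Identifiers were matched to RefSeq GRCm38.p6, which also gave coordinates and promoter sequences (7 of 10 members).

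Expected counts were rounded and analysed in edgeR 4.0.16 (R 4.3.3) with filterByExpr (minimum count 10), TMM factors and a robust quasi-likelihood fit of all 10 libraries, and adjusted by Benjamini-Hochberg over 19676 genes. The procedure was tested on simulated data. Log2 CPM values used a prior count of 2, and an effective length is count divided by the product of FPKM and total count. Total counts of 35583997 to 37327770 limit the precision of low genes. Alternatives were DESeq2 1.42.0, limma 3.58.1 on log2 FPKM, other factors, filters and sample sets, and each library left out. Replicate numbers are shared between groups. Deviations of same-numbered control and obesity-resistant libraries correlated at 0.149, 0.121 and 0.187. Those of differently numbered ones ran from -0.331 to 0.254, so these values do not show that the numbers mark pairs. For that comparison the blocked count is given beside the result. For same-numbered pairs with obesity-prone libraries the correlations ran from -0.146 to 0.206.

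All 10 members are named. Of the other lists, genes are named when called, up to 3 per list and comparison (1 such gene is not reported here), with all other phosphodiesterases tested. For Pde1a, Pde7b and Pde3b the 3 most similar protein-coding genes are named. The members and lists were chosen with earlier results of these data known.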

Additional observations from a re-analysis of the deposited data

Results flagged for a closer look

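In the 4 control libraries, 1 library lay far from the others for 2 of the 10 members examined, where chance gives about 1 group in 20. Pde3a was at 66.4 CPM in control replicate 1 and at 108, 109 and 111 in the others. Without that library its log2 fold change in obesity-prone libraries was -0.86 in place of -0.71. Pde8a was at 96.0 CPM in control replicate 4 and at 119, 116 and 119 in the others, and without it the log2 fold change was -0.55 in place of -0.48.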

How the results depend on the processing

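No fold change of a called member changed sign under any alternative, and of 660 member values 13 moved by more than the spread between libraries, all of Pde4b or Pde10a on the FPKM scale. In obesity-prone against control, 1377 genes and 4 members were called. The count of genes was 3138 with DESeq2, 66 with only the 2 groups fitted, 280 with limma and no filter, and, with each library left out, 76 (control replicate 3) to 3040 (control replicate 4); only the fits without obesity-prone replicate 2 and control replicate 4 gave more than 1377. The count of members was 1 (Pde1a) with 2 groups, 2 with limma and no filter, and 1 to 6 with each library left out. In obesity-resistant against control, 28 genes and 1 member were called. The count of genes was 1138 with DESeq2, 76 without a filter, 68 with the stricter one, 391 with 2 groups, 8 with limma and no filter, and, with each library left out, 3 (control replicate 2 or obesity-resistant replicate 1) to 864 (control replicate 4). The member was not called (0) by limma with any constant, and leaving out each library gave 0 to 1. Between the high-fat groups, 0 genes and 0 members were called, against 565 and 1 with DESeq2 and 0 to 871 and 0 to 2 with each library left out, the highest without obesity-prone replicate 2. With the replicate block, 1582, 382 and 0 genes and 3, 1 and 0 members were called in the 3 comparisons, and Pde7a lost its call. An alternative chosen after seeing the data, leaving out both obesity-prone replicate 3 and control replicate 4, gave 2635, 2212 and 0 genes and 4, 2 and 0 members. Those were Pde1a, Pde3b, Pde7a and Pde8a in obesity-prone and Pde1a and Pde8a in obesity-resistant libraries, while Pde7b, at -1.17, was not called. The cause of these shifts was not tested. The lowest count of a member in any library was 434.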

Other observations

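Genes with the pattern most like a member over the 10 libraries are given by Pearson's r of log2 CPM, without a test, from 14230 protein-coding genes. For Pde1a these were Angpt1 (r = 0.984), Aldh3b2 (0.979) and Fgf14 (0.979). Angpt1, which encodes the vessel-stabilising ligand angiopoietin 1, averaged 25.0 ± 7.21 CPM in control, 9.42 ± 0.891 in obesity-prone and 9.03 ± 1.63 in obesity-resistant libraries. Fgf14 averaged 179 ± 35.3, 62.9 ± 1.98 and 73.0 ± 1.99 CPM in the same order. For Pde7b they were Lpl (0.982), Tti2 (0.981) and Rbks (0.979). Lpl, the lipoprotein lipase that releases fatty acids from circulating triglyceride, averaged 5822 ± 515 CPM in control, 3521 ± 872 in obesity-prone and 6075 ± 1060 in obesity-resistant libraries. For Pde3b they were Robo2 (0.961), Pon1 (0.952) and Gpcpd1 (0.945).

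The effective length of Pde1c was under 1 kb in every library, from 0.454 to 0.646 kb, and averaged 0.483 ± 0.0421 kb in control, 0.576 ± 0.0608 in obesity-prone and 0.605 ± 0.0192 in obesity-resistant libraries. Its FPKM of 32.9 in control thus went with 16.4 CPM, while Pde8a had a like FPKM of 32.7 with 112 CPM.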
